A study of Mus musculus with 12 samples.

Results

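IFI202B, IFI203, IFI204, IFI205 and AIM2 belong to the p200 (IFI200) family of interferon-inducible DNA-binding proteins of the mouse. They were taken from the gene TPM table of this study as the 5 rows with these symbols, out of 23636 symbols in all, and all 5 passed the filter on low values that 11878 symbols passed. The table held 7 further symbols of the same family, MNDAL, IFI207, IFI208, IFI209, IFI211, IFI213 and IFI214, which also passed and are described beside the members.

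Proteins of this family bind DNA through HIN domains, and most of them also carry a pyrin domain, with which they bind other pyrin proteins. AIM2 senses DNA in the cytosol and recruits the adaptor ASC (PYCARD) and caspase-1 into an inflammasome, which matures IL-1β and IL-18 and opens the membrane through gasdermin D. IFI204 is known as a DNA sensor that acts through STING, whereas IFI202B lacks the pyrin domain and is known as an inhibitor of AIM2. Type I and type II interferons induce many family members, through transcription factors that bind GAS and ISRE elements in their promoters.

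The libraries came from CT26, a colon carcinoma cell line of BALB/c mice, with no genetic change named in the labels. One group had no treatment, and the others were kept for 8 hours with CX3CL1 (fractalkine, the chemokine ligand of CX3CR1) at 2 µg/ml, with the cytokine IFN-γ at 100 ng/ml, or with CX3CL1+IFN-γ. In which order both agents were added is not in the labels. The study's text also speaks of TNF-α given with IFN-γ before CX3CL1, which neither the labels nor the legend of these libraries name, and this was not settled here. The labels give 3 biological replicates in each of the 4 groups, which made 12 libraries. How separate the cultures behind these replicates were is not given, so p-values measure only the spread between these libraries.

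The family forms a cluster on mouse chromosome 1. In GENCODE vM21 on GRCm38, the 12 genes lie between positions 173350879 and 174031810, with 3 on the plus strand and 9 on the minus strand. AIM2 lies at chr1:173350879-173466040 on the plus strand, at one end of the cluster. The other members are on the minus strand, with IFI204 at chr1:173747293-173766943, IFI203 at chr1:173920407-173942672, IFI202B at chr1:173962568-173982744 and IFI205 at chr1:174011998-174031810. Of 9 genes next to the cluster on that chromosome that the table listed, 0 passed the filter on low values, so their behaviour could not be compared with that of the family.

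Upstream sequences are shown for 4 members because the elements through which interferons act would stand there, and because the members differed in what they held. They are windows of the 250 bases before a RefSeq transcript start, taken from RefSeq on GRCm38.p6 and read 5′ to 3′ on the gene's strand, with capitals marking a match to a searched motif. RefSeq windows were matched for 11 of the 12 family symbols and 4 of the 5 members. The window of IFI204 is not shown. RefSeq starts differ from the outer ends of the GENCODE genes above, which include further transcripts. The AIM2 window thus lies inside the GENCODE gene, and the IFI203 and IFI205 windows reach into theirs. The IFI203 window, one of a pair that RefSeq gives for this gene, lies at chr1:173942493-173942742, that of IFI205 at chr1:174031756-174032005, that of IFI202B at chr1:173982845-173983094, all on the minus strand, and that of AIM2 at chr1:173420354-173420603 on the plus strand. Of the AIM2 window the first 217 bases, to position 173420570, are shown, since the last 33 lie in an annotated untranslated exon.
IFI203: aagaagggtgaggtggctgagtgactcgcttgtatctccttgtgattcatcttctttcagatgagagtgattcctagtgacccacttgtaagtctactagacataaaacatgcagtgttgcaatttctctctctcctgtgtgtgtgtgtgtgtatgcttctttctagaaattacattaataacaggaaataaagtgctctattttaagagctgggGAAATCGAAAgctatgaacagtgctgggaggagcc
IFI205: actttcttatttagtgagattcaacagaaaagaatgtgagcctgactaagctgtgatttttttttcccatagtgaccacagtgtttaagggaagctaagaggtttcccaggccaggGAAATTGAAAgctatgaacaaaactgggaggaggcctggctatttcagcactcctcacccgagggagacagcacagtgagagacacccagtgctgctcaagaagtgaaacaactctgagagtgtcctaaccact
IFI202B: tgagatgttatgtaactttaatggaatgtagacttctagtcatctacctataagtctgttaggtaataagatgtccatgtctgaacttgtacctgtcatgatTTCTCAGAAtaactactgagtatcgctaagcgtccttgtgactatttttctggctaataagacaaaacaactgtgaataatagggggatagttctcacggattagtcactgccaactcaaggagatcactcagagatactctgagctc
AIM2: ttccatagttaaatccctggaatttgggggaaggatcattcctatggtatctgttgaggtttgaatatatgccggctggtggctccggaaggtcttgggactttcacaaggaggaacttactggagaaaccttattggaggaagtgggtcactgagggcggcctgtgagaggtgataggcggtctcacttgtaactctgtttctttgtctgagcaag

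The motifs searched, on both strands, were the ISRE core GAAANNGAAA, the GAS element TTCNNNGAA and the NF-kB consensus. The 250-base windows of all 32851 RefSeq starts held them in 2.98%, 7.02% and 7.25%. The ISRE core stood in the IFI203 window as GAAATCGAAA, ending 25 bases before the start, and in the IFI205 window as GAAATTGAAA, ending 124 bases before it. The same 10 letters as in IFI203 stood in windows of MNDAL, IFI207, IFI208, IFI213 and IFI214, and those of IFI205 also in that of IFI211. The IFI202B window held no ISRE core but a GAS element, TTCTCAGAA, ending 139 bases before the start. The AIM2 window held none of the 3 motifs. The NF-kB consensus matched in the other IFI203 window and in that of IFI209. A match in these letters is a description of the window and does not show a bound site.

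Copies in this family resemble each other, and how reads that fit several genes were counted is not given in the sources used here. An exact comparison of annotated transcripts showed how far this could reach. Of all 50-base windows of its transcripts, IFI202B shared 0% with any other gene and AIM2 0.63%. The shares were 12.22% for IFI203, 20.02% for IFI204 and 18.61% for IFI205. With 150-base windows these fell to 0.83%, 6.77% and 12.65%. IFI211 was the main partner of IFI204 and IFI205, and itself shared 46.39% of its 150-base windows. MNDAL and IFI203 overlap in 37 exonic bases on the same strand. IFI209 shared 33.75% of its 50-base windows, mostly with IFI214, and IFI208 shared 20.8%. Values of all family genes here other than IFI202B and AIM2 are therefore uncertain as single genes. The reference is of C57BL/6J, and copies in this cluster are known to differ between mouse strains. The effect of that on the values was not tested.

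**Figure D1:**
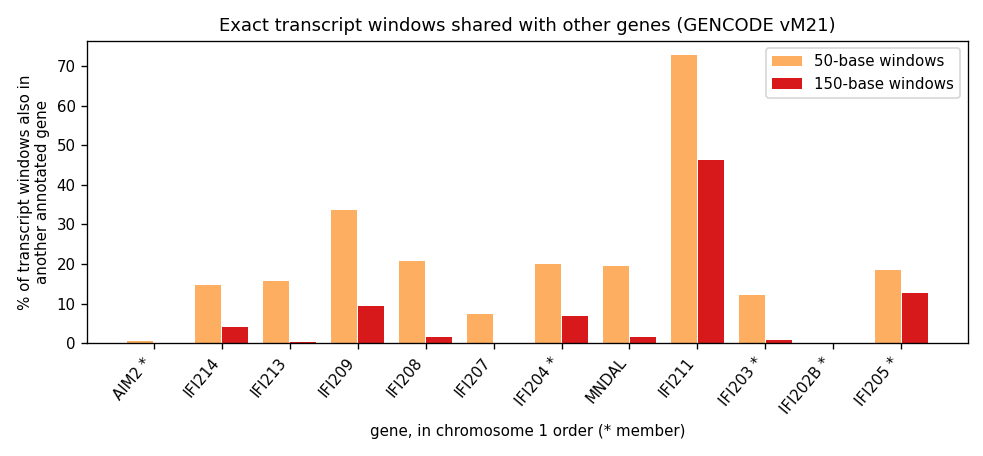
Share of each gene's annotated transcript windows (percent, vertical axis) whose exact sequence also occurs in another annotated gene, for windows of 50 and 150 bases, with the 12 family genes in chromosome order and members starred. IFI202B has no bar, AIM2 reaches 0.63%, and IFI211 stands highest at 72.79% and 46.39%.

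The TPM of each library summed to 1000000, and 10613 to 10824 symbols per library had at least 1 TPM. TPM are scaled for transcript length, which allows levels of different genes to be compared, but they hold no read depth, so the depth of each library is unknown here. Of 8 mesenchymal markers all 8 had a mean of at least 1 TPM (VIM, COL1A2 and FN1 highest), while of 10 epithelial markers 2 did, and EPCAM and CLDN7 were listed at 0 in every library. The summed mesenchymal markers ran from 4800 to 6050 TPM without treatment, 4130 to 4860 with CX3CL1, 3580 to 4570 with IFN-γ and 2690 to 3990 with both, and the epithelial sum from 51.2 to 64.7, 33.6 to 44.4, 35.7 to 41.8 and 24.9 to 33.2 TPM. Their part in the results was not tested. Macrophages express this family strongly, and of 12 myeloid markers 3 (CD14, CD68 and LY6C2) had a mean of at least 1 TPM. The myeloid sum ran from 35.6 to 48.1, 38.4 to 70.4, 43.8 to 64.3 and 45.6 to 75.1 TPM in the same order. TYROBP was listed at 0 in all libraries, PTPRC, the pan-leukocyte marker, was at most 0.0441 TPM and CSF1R, the macrophage growth factor receptor, at most 0.0283 TPM. Of 8 lymphocyte markers 0 had a mean of at least 1 TPM, with CD3E, MS4A1 and NCR1 at 0, and the summed level ran from 0.344 to 0.485, 0.113 to 0.64, 0.169 to 0.3 and 0.129 to 0.23 TPM. RNA of CX3CR1, the receptor of CX3CL1, had means of 0.075, 0.062, 0.080 and 0.0975 TPM in the same order, and at most 0.154 TPM in any library. The study reports CX3CR1 protein on CT26 cells by flow cytometry. Through which receptor CX3CL1 acted was not tested. In bulk RNA a change in the number of expressing cells and a change in RNA per cell cannot be told apart.

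The 4 HIN members other than AIM2 had every treated library above every untreated one. The share of all genes with that pattern over all treated groups was not computed. For single treatments it was 5.5% with CX3CL1 and 20.6% with IFN-γ. AIM2 was called in no comparison. IFI202B, the AIM2 inhibitor, was the most abundant member throughout, at 207.4 ± 8.07 TPM without treatment (SD, n = 3 here and below). IFI204 followed at 52.25 ± 2.298 TPM and IFI203 at 38.77 ± 11.04 TPM. AIM2 stood at 9.12 ± 0.705 TPM and IFI205 at 0.762 ± 0.106 TPM. With CX3CL1+IFN-γ the order had changed at its lower end, with IFI205 at 29.86 ± 15.05 TPM above AIM2 at 9.95 ± 0.542 TPM. The 5 members together made 308.3 ± 21.17 TPM without treatment and 1528 ± 271.1 TPM with CX3CL1+IFN-γ, and IFI202B supplied 67.3% and 58.2% of these sums.

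**Figure D2:**
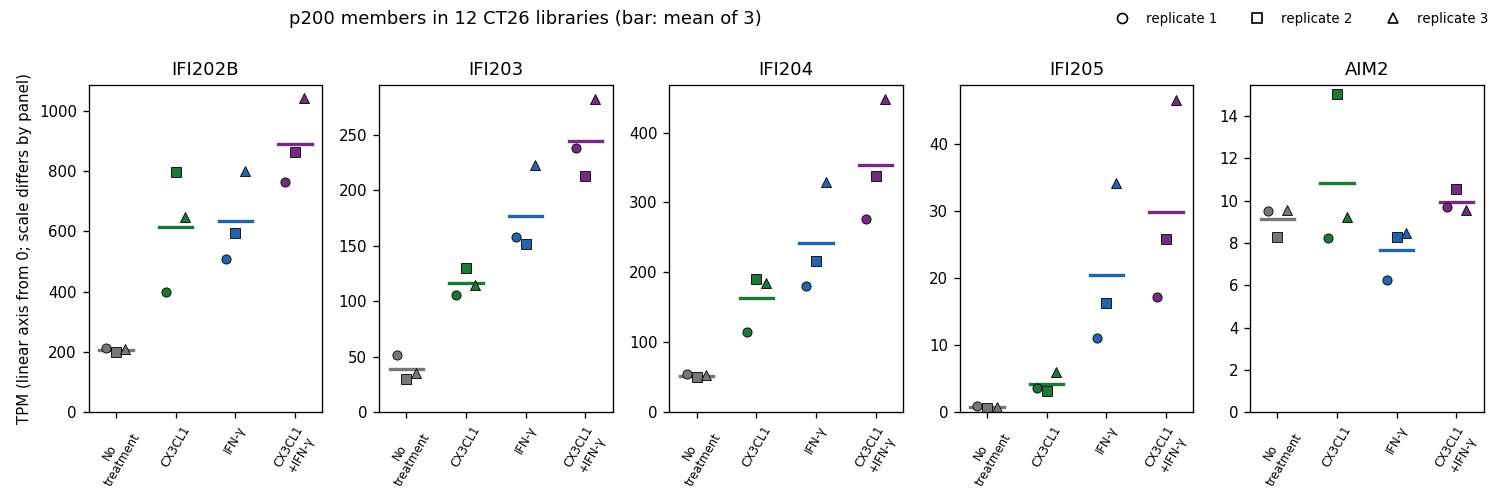
TPM of the 5 members in the 12 libraries (vertical axes linear from 0 and differing by panel; horizontal axis, the 4 groups). Marker shape gives the replicate and the bar the mean of 3. The untreated libraries lie below all treated ones for IFI202B, IFI203, IFI204 and IFI205, while for AIM2 all groups stay between 6.27 and 15.0 TPM.

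IFI202B was at 214, 198 and 210.4 TPM in untreated replicates 1, 2 and 3, and reached 399, 796 and 646 TPM with CX3CL1. Its values were 509, 595 and 799 TPM with IFN-γ and 763, 864 and 1043 TPM with CX3CL1+IFN-γ. No treated library reached down to the untreated range, whereas the libraries of the single treatments overlapped and CX3CL1 replicate 1 was the lowest of all treated ones. The mean was 2.96-fold the untreated mean with CX3CL1, 3.06-fold with IFN-γ and 4.29-fold with both.

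IFI203, a nuclear family member with a pyrin domain, was at 51.1, 29.7 and 35.5 TPM without treatment, 105, 130.0 and 114 TPM with CX3CL1, 158, 151 and 222 TPM with IFN-γ and 238, 212 and 282 TPM with both. The CX3CL1 libraries lay between the untreated and the IFN-γ libraries with no overlap on either side, and the IFN-γ range overlapped that of the combination. The means were 3.00-fold, 4.57-fold and 6.30-fold the untreated mean.

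IFI204, the STING-linked DNA sensor, was at 53.9, 49.6 and 53.3 TPM without treatment. Its values were 115, 191 and 185 TPM with CX3CL1, 181, 216 and 329 TPM with IFN-γ and 276, 338 and 448 TPM with both. Replicate 1 of IFN-γ fell within the CX3CL1 range, and all libraries of the combination lay above all CX3CL1 libraries. The means were 3.13-fold, 4.63-fold and 6.78-fold the untreated mean.

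IFI205, known for control of ASC levels in macrophages, was near the floor without treatment, at 0.881, 0.677 and 0.728 TPM. The CX3CL1 libraries held 3.63, 3.21 and 5.93 TPM, those of IFN-γ 11.0, 16.3 and 34.2 TPM and those of the combination 17.2, 25.8 and 46.5 TPM. Every IFN-γ library lay above every CX3CL1 library, and the spread within the groups that received IFN-γ was wide. The means were 5.59-fold, 26.9-fold and 39.2-fold the untreated mean.

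AIM2 was at 9.5, 8.31 and 9.56 TPM without treatment, 8.22, 15.0 and 9.23 TPM with CX3CL1, 6.27, 8.27 and 8.47 TPM with IFN-γ and 9.72, 10.6 and 9.56 TPM with both. The groups overlapped except that all 3 combination libraries lay above all 3 IFN-γ libraries and, barely, above all 3 untreated ones. The lowest combination library held 9.558 TPM and the highest untreated one 9.557 TPM. CX3CL1 replicate 2 stood above every other library.

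The first question was what CX3CL1 alone did to the family. Limma was fitted to log2(TPM + 1) of all 12 libraries, and a gene was called at a Benjamini-Hochberg adjusted p under 0.05 over all genes tested. Log2 fold changes below are on that scale, which understates changes of genes near 0 such as IFI205. Against untreated cells, 3 of 5 members were called higher, where 1.78% of all genes were called higher, 0.168% lower and 1.95% in either direction. IFI202B rose by 1.50 on the log2 scale (SE 0.224, limma adjusted p = 0.0026), IFI203 by 1.59 (SE 0.194, limma adjusted p = 6.8e-04) and IFI204 by 1.59 (SE 0.238, limma adjusted p = 0.00262). IFI205 differed by 1.54 (SE 0.376), with groups that did not overlap, and missed the threshold (limma adjusted p = 0.0629). It was called with a pseudocount of 0.1 (log2 2.29, adjusted p = 0.00635) and when only these 6 libraries were fitted (adjusted p = 0.00334). It was called in none of the 6 fits that left out 1 library (limma adjusted p up to 0.273). With no filter on low values it was not called either (limma adjusted p = 0.199). AIM2 differed by 0.18 (SE 0.182, adjusted p = 1.0), with a 95% interval of -0.17 to 0.54. Intervals here and below are unadjusted and use a normal quantile, so they are narrower than limma's own test implies. The untreated and CX3CL1 ranges of 4 members did not overlap, as for 5.5% of all genes. The median over the 5 members was 1.54, against -0.02 over all genes.

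Of the other family genes 3 of 7 were called higher with CX3CL1. MNDAL, which lies next to IFI203, rose from 40.48 ± 15.24 to 117.7 ± 12.75 TPM (log2 1.58, adjusted p = 0.00558), IFI211 from 19.0 ± 0.985 to 52.77 ± 13.32 TPM (log2 1.40, adjusted p = 0.00346) and IFI207 from 2.34 ± 1.27 to 8.09 ± 1.21 TPM (log2 1.50, adjusted p = 0.0227). The call of IFI207 was lost in 4 of 6 fits that left out 1 library each, namely untreated replicate 2 or 3 or CX3CL1 replicate 1 or 3, with a highest adjusted p of 0.125 over all alternatives. IFI209, IFI214, IFI208 and IFI213 were not called, and with CX3CL1 their means stayed between 0.0409 and 1.46 TPM. With a pseudocount of 0.1 IFI209 (adjusted p = 0.0205) and IFI214 (adjusted p = 0.00907) were called, and when the 6 libraries were fitted alone they were too (adjusted p = 0.0145 and 0.0217).

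The second question was how IFN-γ alone compared. Against untreated cells 4 of 5 members were called higher, where 5.91% of all genes were called higher, 1.94% lower and 7.85% in either direction. With the replicate number as a block the gene count rose from 932 to 1929, and the member count stayed at 4. IFI205 rose by 3.47 (SE 0.376, limma adjusted p = 6.0e-05), the most of the members. IFI203 rose by 2.18 (SE 0.194, limma adjusted p = 1.3e-05), IFI204 by 2.14 (SE 0.238, limma adjusted p = 7.3e-05) and IFI202B by 1.58 (SE 0.224, limma adjusted p = 5.4e-04). AIM2 differed by -0.23 (SE 0.182, adjusted p = 0.504), with a 95% interval of -0.59 to 0.13. Groups did not overlap, with IFN-γ higher, for 4 members and for 20.6% of all genes. The median over the members was 2.14, against 0.03 over all genes. IFI205 is also among the genes that the study's heat map picked on these libraries, so it is not independent evidence of a direction. The study's heat maps set CX3CL1 against no treatment and CX3CL1+IFN-γ against IFN-γ. The lack of independence therefore concerns those comparisons above all.

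With IFN-γ all 7 other family genes were called higher. IFI207 rose from 2.34 ± 1.27 to 57.39 ± 22.37 TPM (log2 4.13, adjusted p = 5.6e-06), the largest log2 change among the 12 genes at a pseudocount of 1. With a pseudocount of 0.1 IFI208 (log2 5.04), IFI214 (4.86) and IFI209 (4.64) stood above IFI207 (4.62), and the fold of the means was 57.7 for IFI214 and 37.4 for IFI209 against 24.5 for IFI207. IFI209, IFI208 and IFI214 had means of 0.243, 0.0864 and 0.11 TPM without treatment and of 9.09, 5.99 and 6.37 TPM with IFN-γ. IFI208 was listed at 0 in 1 untreated library. IFI213 was listed at 0 in untreated replicates 2 and 3 and reached 0.958, 0.361 and 1.18 TPM with IFN-γ (adjusted p = 0.0292), and its call was lost in 5 of the 6 fits without 1 library, every one but that without IFN-γ replicate 2, with adjusted p up to 0.133 over all alternatives. MNDAL rose by 2.25 on the log2 scale and IFI211 by 2.09.

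**Figure D3:**
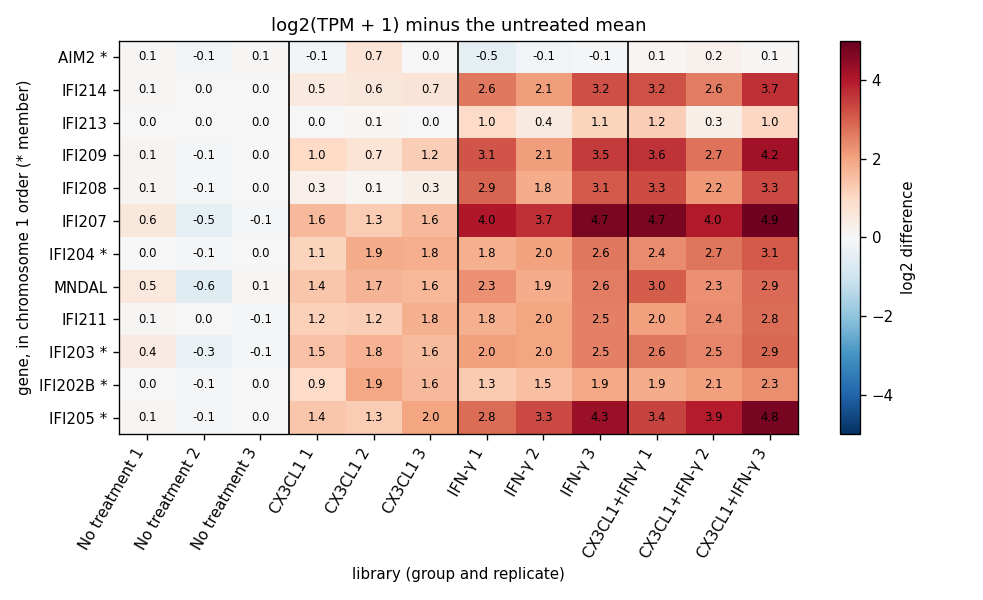
Log2(TPM + 1) of the 12 family genes in each of the 12 libraries, as the difference from the untreated mean (colour and number; rows in chromosome order, members starred). AIM2 is the palest row beside IFI213, and IFI207 and IFI205 are the darkest rows in the libraries that received IFN-γ.

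Set directly against each other, IFN-γ and CX3CL1 differed for 1 of 5 members, where 3.52% of all genes were called higher with IFN-γ, 1.06% lower and 4.58% in either direction. With the replicate number as a block the gene count rose from 544 to 1601 and the member count stayed at 1. IFI205 was 1.92 higher with IFN-γ (SE 0.376, limma adjusted p = 0.0127). That call was lost without CX3CL1 replicate 2 (adjusted p = 0.0551) and without IFN-γ replicate 3 (adjusted p = 0.0507). IFI202B differed by 0.08, with a 95% interval of -0.36 to 0.52, IFI203 by 0.58 (0.20 to 0.96), IFI204 by 0.55 (0.09 to 1.02) and AIM2 by -0.41 (-0.77 to -0.06). None of these 4 was called, at adjusted p between 0.111 and 0.873. IFN-γ libraries lay above all CX3CL1 libraries for IFI203 and IFI205, as for 18.3% of all genes. Of the other family genes IFI207, IFI208, IFI209 and IFI214 were called higher with IFN-γ, IFI209 not without CX3CL1 replicate 2 or IFN-γ replicate 3 (highest adjusted p = 0.0579), and MNDAL, IFI211 and IFI213 were not called. With the replicate block IFI211 and IFI213 were called too, at adjusted p of 0.016 and 0.0169.

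The third question was what each agent did when the other was present. CX3CL1 added to IFN-γ led to 0 of 5 members called by limma, where 0.345% of all genes were called higher, 0.0168% lower and 0.362% in either direction, or 43 genes against 95 with the replicate block. IFI202B differed by 0.50 (SE 0.224, unadjusted p = 0.0443), IFI203 by 0.47 (SE 0.194, unadjusted p = 0.0301) and IFI204 by 0.57 (SE 0.238, unadjusted p = 0.0344), so 3 members had an unadjusted p under 0.05 in limma, and the adjusted p of each was 0.975. IFI205 differed by 0.55 (95% interval -0.18 to 1.29) and AIM2 by 0.35 (-0.01 to 0.70). Libraries of the 2 groups with the same replicate number deviated together, and the ratio of the combination to IFN-γ within a number was above 1 in each of the 3 pairs for all 5 members. It was 1.5, 1.45 and 1.31 for IFI202B, 1.51, 1.41 and 1.27 for IFI203 and 1.53, 1.56 and 1.36 for IFI204. For IFI205 it was 1.56, 1.58 and 1.36, and for AIM2 1.55, 1.28 and 1.13. The share of all genes with such ratios above 1 in all 3 pairs was not computed. These ratios are therefore a description and no result about the members. With the block the members were still not called, at a lowest adjusted p of 0.263 over all alternatives, for IFI204. The ranges did not overlap for AIM2 alone among the members, as for 8.54% of all genes. The other 7 family genes were not called, with a median difference of 0.39.

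IFN-γ added to CX3CL1 raised 3 of 5 members, where 3.76% of all genes were called higher, 0.935% lower and 4.7% in either direction. With the replicate block the gene count rose from 558 to 1369. IFI205 rose by 2.48 (SE 0.376, limma adjusted p = 0.00226), IFI203 by 1.06 (SE 0.194, limma adjusted p = 0.00697) and IFI204 by 1.12 (SE 0.238, limma adjusted p = 0.0175). The call of IFI204 was lost without CX3CL1 replicate 1 (adjusted p = 0.063), without CX3CL1+IFN-γ replicate 3 (adjusted p = 0.0911) and with no filter on low values (adjusted p = 0.0539). IFI202B differed by 0.58 (95% interval 0.14 to 1.02, adjusted p = 0.186) and AIM2 by -0.07 (-0.43 to 0.29, adjusted p = 0.891). Ranges did not overlap for 3 members, as for 14% of all genes. All 7 other family genes were called higher, IFI213 with an adjusted p of 0.0484 that passed the threshold in 4 of 14 alternatives. MNDAL (adjusted p = 0.0281) and IFI211 (adjusted p = 0.02) each lost the call in fits that left out 1 library. These were CX3CL1 replicate 1 or 3 or CX3CL1+IFN-γ replicate 1 or 3 for MNDAL (highest adjusted p = 0.116), and CX3CL1 replicate 1 or 2 or CX3CL1+IFN-γ replicate 3 for IFI211 (highest adjusted p = 0.0997).

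The interaction on the log2 scale asked whether the presence of IFN-γ altered the effect of CX3CL1. It called 0 of 11878 genes by limma at the adjusted threshold, with 273 at an unadjusted p under 0.05 and 52 called with the replicate block. The estimates, none of which passed, were -1.12 for IFI203 (SE 0.274, unadjusted p = 0.00141, limma adjusted p = 0.355), -1.03 for IFI204 (95% interval -1.69 to -0.36), -1.0 for IFI202B (-1.62 to -0.38) and -0.99 for IFI205 (-2.03 to 0.05). For AIM2 the estimate was 0.16 (-0.34 to 0.67). No member passed the adjusted threshold under any alternative, the lowest adjusted p being 0.077 for IFI203.

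**Figure D4:**
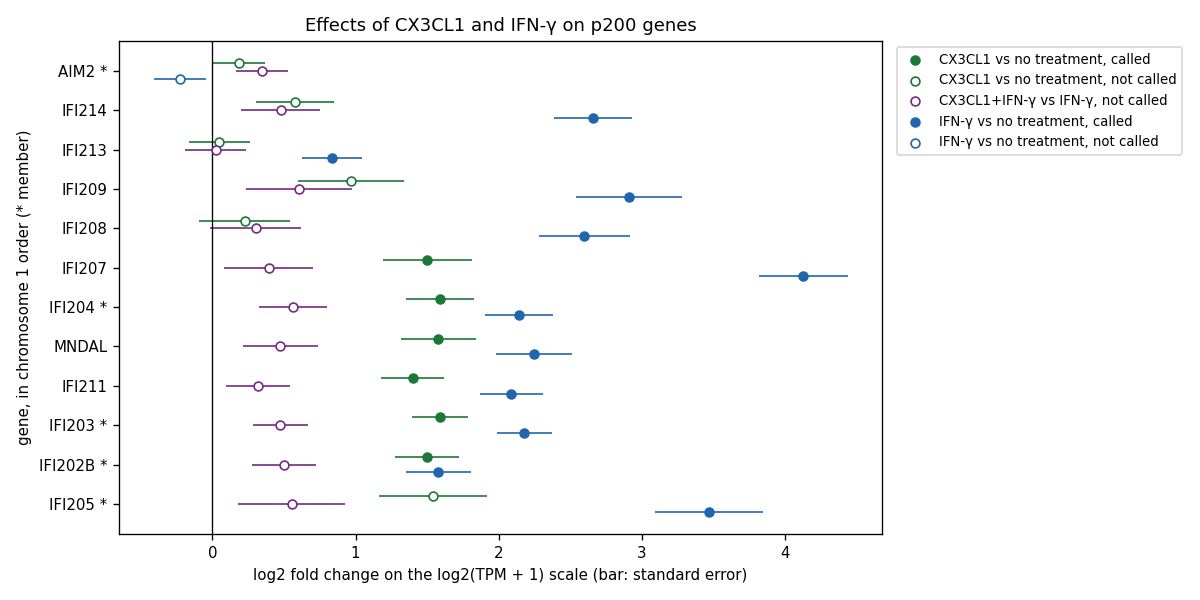
Log2 fold changes on the log2(TPM + 1) scale (horizontal axis, points, with bars for the standard error) of the 12 family genes in chromosome order, members starred, for CX3CL1 against no treatment, IFN-γ against no treatment and CX3CL1+IFN-γ against IFN-γ. Filled points were called at an adjusted p under 0.05, and every point for CX3CL1+IFN-γ against IFN-γ is open.

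On the linear TPM scale, a comparison chosen after the data were seen, the level with both agents was set beside the untreated mean plus the rise with each agent alone. For IFI204 that sum was 353.2 TPM (SE 50.9) and the level with both 354.3 TPM (SE 50.3). For IFI203 it was 254.7 TPM (SE 24.6) against 244.2 (SE 20.4), for IFI202B 1041 TPM (SE 144) against 890.0 (SE 81.9), and for IFI205 24.02 TPM (SE 7.06) against 29.86 (SE 8.69). With the groups taken as independent, the standard error of the difference was 11.2 TPM for IFI205 and 166 TPM for IFI202B. Taken within replicate numbers, which do not pair all of these groups, the level with both agents minus the sum was 3.46, 6.96 and 7.12 TPM for IFI205 (mean 5.85, SE 1.19), above 0 in all 3 numbers. It was 68.1, -328 and -192 TPM for IFI202B, 26.0, -38.9 and -18.7 TPM for IFI203 and 34.9, -19.7 and -11.9 TPM for IFI204, with both signs for each. These differences were not tested.

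**Figure D5:**
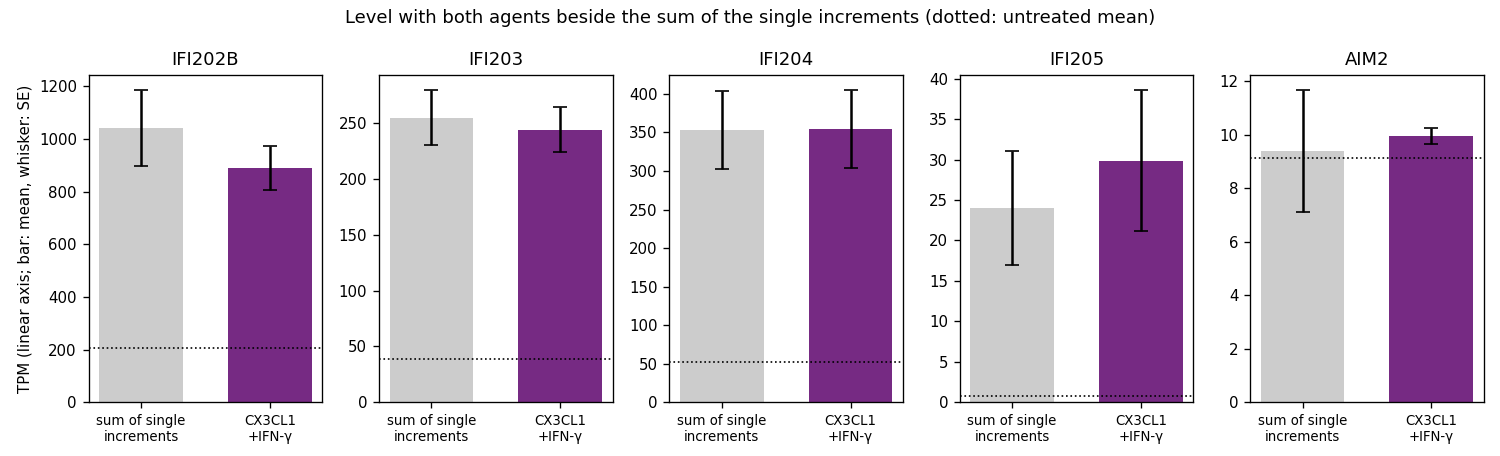
Mean TPM (vertical axis, linear from 0, differing by panel) with CX3CL1+IFN-γ beside the untreated mean plus the single-treatment increments, for each member, with whiskers for the standard error (groups taken as independent) and a dotted line at the untreated mean. The whiskers of the paired bars overlap for every member.

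The order of the levels was therefore the same for IFI202B, IFI203, IFI204 and IFI205, from untreated to CX3CL1, IFN-γ and both, but not all neighbours in that order differed. CX3CL1 was called above untreated for IFI202B, IFI203 and IFI204. For IFI205 that step missed the threshold under the main settings although the groups did not overlap. IFN-γ was called above CX3CL1 for IFI205, a call that was lost without CX3CL1 replicate 2 or IFN-γ replicate 3, and the combination was not called above IFN-γ for any of the 4. For AIM2 the order of the means was IFN-γ, untreated, combination and CX3CL1, at 7.67, 9.12, 9.95 and 10.83 TPM, and none of the pairs of groups compared was called. Untreated and combination libraries were not compared directly.

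Genes with the most similar pattern over the 12 libraries were found by the root mean square difference of log2(TPM + 1) after centring each gene, among 11873 genes, and their likeness is a description. Nearest to IFI203 was its neighbour MNDAL at 0.179, with which it shares exonic bases. UPP1 (0.208) and DTX3L (0.209) followed. Nearest to IFI204 were SAMD9L (0.208), DTX3L (0.23) and SLFN8 (0.241), and nearest to IFI202B were BANK1 (0.27), SP100 (0.27) and RTP4 (0.295). IFI205 was less closely matched, by GBP6 (0.341), TGTP2 (0.354) and GM4951 (0.391), of which the first rose from 0.706 TPM without treatment to 24.2 TPM with IFN-γ. AIM2 was nearest to MIER1 (0.0908), TRMT10A (0.0932) and PPP4R3B (0.0935), genes whose means varied little between the groups.

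Inflammasome genes were read from a list of 12, of which 7 were tested. The list held partners of AIM2 but also other sensors, such as NLRP3 and ZBP1, and CASP4. It also held PYCARD, IL1B and IL18, each of which was either not tested or not called in any comparison. With CX3CL1 4 of the 7 were called higher (CASP1, CASP4, GSDMD and ZBP1), with IFN-γ 5, and with CX3CL1 added to IFN-γ 0. The shares called higher over all genes were 1.78%, 5.91% and 0.345%. None was called lower. CASP1, the protease that the inflammasome activates, rose from 16.22 ± 4.21 TPM to 31.34 ± 3.20 with CX3CL1 (log2 0.93, adjusted p = 0.0196) and 57.34 ± 10.37 with IFN-γ (log2 1.77, adjusted p = 5.2e-05). CASP4, the caspase of the non-canonical pathway, rose from 3.11 ± 1.49 TPM to 16.02 ± 1.66 and 42.17 ± 13.31. ZBP1, another sensor of nucleic acids, rose from 6.95 ± 4.32 TPM to 41.33 ± 15.35 and 329.7 ± 54.66. NLRP3, the sensor of another inflammasome, was at 0.393 ± 0.188 TPM without treatment, 2.02 ± 1.06 with CX3CL1 (log2 1.07, adjusted p = 0.253) and 2.61 ± 0.982 with IFN-γ (log2 1.34, adjusted p = 0.0348). All CX3CL1 libraries of NLRP3 lay above the untreated ones, as for 5.5% of all genes, and IFN-γ and CX3CL1 were not told apart (log2 0.28, adjusted p = 0.692). With both agents NLRP3 was at 9.35 ± 4.71 TPM. That was not called against IFN-γ (log2 1.43, limma adjusted p = 0.196), although the ranges did not overlap, as for 8.54% of all genes.

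For STING and cytosolic DNA sensing, the pathway in which IFI204 acts, 16 symbols were listed, some of them second names of the same gene. Of these symbols 14 were in the TPM table and 13 were tested. Among all genes 1.78% were called higher with CX3CL1, 5.91% with IFN-γ and 0.345% with CX3CL1 added to IFN-γ. With CX3CL1 1 was called, IKBKE, a kinase related to TBK1 (log2 1.05, adjusted p = 0.0361). With IFN-γ 3 were called, namely IRF7, at 695.9 ± 59.88 against 59.17 ± 47.22 TPM without treatment, the nucleotide hydrolase SAMHD1, at 267.3 ± 51.83 against 114.5 ± 17.74 TPM, and the type I interferon gene IFNB1, which was at 0.568, 0.941 and 0.93 TPM with IFN-γ and at 0.106, 0.072 and 0 TPM without treatment. The median over the 13 genes was 0.10 with CX3CL1 and 0.19 with IFN-γ, and none was called with CX3CL1 added to IFN-γ.

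Of 12 IFN-γ signalling genes 2 were called with CX3CL1 and 5 with IFN-γ, all higher, beside 1.78% and 5.91% of all genes. STAT2, a subunit of the complex that binds the ISRE, rose from 22.55 ± 5.70 TPM to 61.62 ± 14.66 with CX3CL1 (log2 1.42, adjusted p = 0.00288) and 144.6 ± 31.56 with IFN-γ (log2 2.64, adjusted p = 7.6e-06). IRF9, another subunit of that complex, rose from 26.24 ± 3.72 TPM to 46.19 ± 5.09 and 58.0 ± 1.35. IRF1, an interferon-induced transcription factor, was called with IFN-γ (107.4 ± 50.73 against 19.55 ± 0.884 TPM, adjusted p = 1.5e-04) and not with CX3CL1 (28.9 ± 5.26 TPM, adjusted p = 0.778), and was 1.78 higher on the log2 scale with IFN-γ than with CX3CL1 (adjusted p = 0.00376). Of the 12 genes 0 were called with CX3CL1 added to IFN-γ, where 0.345% of all genes were called higher.

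Among 8 NF-kB subunits and regulators, 6 were called higher with CX3CL1 and 3 with IFN-γ, beside 1.78% and 5.91% of all genes. When CX3CL1 was added to IFN-γ, 2 of these 8 were called higher, NFKB1 and NFKBIZ, beside 0.345% of all genes. NFKBIZ, an inducible nuclear IκB protein, was at 6.35 ± 0.767 TPM without treatment, 45.59 ± 3.37 with CX3CL1, 12.06 ± 4.67 with IFN-γ and 70.11 ± 21.15 with both (log2 2.46 against IFN-γ, adjusted p = 3.3e-04). NFKBIA, the IκBα gene, was at 16.83 ± 4.78, 85.29 ± 29.11, 72.27 ± 17.56 and 134.2 ± 42.29 TPM. RELB rose with CX3CL1 (log2 1.67) and with IFN-γ (log2 1.82), as did BCL3 (log2 1.60 and 1.63). The comparisons with untreated cells share the untreated libraries, so the counts of the single treatments are not independent of each other.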

How the data were processed

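RNA-seq libraries of CT26 cells (4 groups of 3) were analysed. Per the labels and the study's methods, libraries were strand-specific, and the authors aligned reads to mm10 with STAR 2.7.3a in the VIPER pipeline and tested gene counts with DESeq2 1.22.1. The deposited values are TPM, summing to 1000000 in each library. The annotation, the handling of reads that fit several genes and the step from counts to TPM are not given in the sources used here, and gene counts were not analysed here. Depth is unknown, so precision rests on the spread between replicates. All 12 columns of values belonged to this series.

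The 11878 genes whose mean reached 0.2 TPM were tested on log2(TPM + 1) with limma 3.58.1 in R 4.3.3 (group means, all libraries, eBayes with an intensity trend, two-sided, Benjamini-Hochberg within each of 6 comparisons, threshold 0.05). The 95% intervals are the log2 fold change plus or minus the normal quantile times its SE. With so few libraries they are narrower than intervals from limma's test would be. An exact permutation test of 3 against 3 libraries cannot go below p = 0.1, so none was used. The script was tested on simulated data. Tables and figures used Python 3.11.15, pandas 2.3.3, numpy 2.4.6 and matplotlib 3.10.9. Positions and transcripts came from GENCODE vM21, upstream windows from RefSeq. Members, lists and the rule for named genes (members, other family symbols, up to 4 genes of each list, the 3 genes most alike) were chosen with earlier results of these data known. From the IFN-γ signalling list 1 gene is not reported here. Alternatives were leaving out each library, the replicate number as a block, a fit of the compared libraries alone, no trend, quantile or median-ratio normalization, a pseudocount of 0.1, other filters (none, or a mean of 1 TPM) and a minimum log2 fold change of 1.

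Same-numbered libraries deviated together, as correlations across genes of their deviations from group means, for no treatment and IFN-γ (0.429, 0.46, 0.22), CX3CL1 and IFN-γ (0.584, 0.361, 0.226), CX3CL1 and the combination (0.351, 0.353, 0.428) and IFN-γ and the combination (0.63, 0.635, 0.649). The pairing rests on these correlations, since no source says what a number shares.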

Additional observations from a re-analysis of the deposited data

How the results depend on the processing

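Of 456 refits of single members under the alternatives, 448 stayed on the same side of the threshold, 5 lost a call, 3 gained one and 0 turned a called direction. Estimates that were not called could change sign within the 448. For AIM2 with CX3CL1 against no treatment, 0.184 became -0.0568 without CX3CL1 replicate 2. The losses and gains are those of IFI205 and IFI204 in the report and, for IFI205, the replicate block below, and the cause was not tested, except that the fit of only the libraries compared uses fewer samples. For the other 7 family genes 596 of 638 refits stayed on the same side of the threshold, again with sign changes of uncalled estimates, 33 lost a call and 9 gained one. Leaving out 1 library at a time gave 0 to 1 members called for IFN-γ against CX3CL1 and 2 to 3 for CX3CL1+IFN-γ against CX3CL1. In CX3CL1 against no treatment (3), IFN-γ against no treatment (4), CX3CL1+IFN-γ against IFN-γ (0) and the interaction (0) the number of members called did not change. Median-ratio scaling and quantile normalization moved the median of all genes by under 0.1 on the log2 scale.

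The replicate number did not pair no treatment with CX3CL1 (correlations 0.387, 0.00472 and 0.301), nor all pairs of the interaction (no treatment and the combination 0.312, 0.447 and 0.0324). With it as a block IFI205 was called with CX3CL1 (adjusted p = 0.00616), and 455 genes were called in place of 232. In the comparisons whose numbers pair, the block changed no other call of a member. IFI204 for IFN-γ against CX3CL1 had an adjusted p of 0.0502 with it.

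Counts of genes called moved more than those of members. Leaving out 1 library gave 152 to 268 genes for CX3CL1 against no treatment (232 with all libraries), 530 to 764 for IFN-γ against no treatment (932), 185 to 457 for IFN-γ against CX3CL1 (544), 16 to 54 for CX3CL1+IFN-γ against IFN-γ (43), 270 to 668 for CX3CL1+IFN-γ against CX3CL1 (558) and 0 to 11 for the interaction (0). Lowest counts came without untreated replicate 3, untreated replicate 3, IFN-γ replicate 3, CX3CL1+IFN-γ replicate 3 and CX3CL1+IFN-γ replicate 3 in the first 5. A log2 fold change of at least 1, which can only remove genes, left 143, 331, 158, 24 and 230. Fitting only the libraries compared gave 252 for IFN-γ against CX3CL1, 20 for CX3CL1+IFN-γ against IFN-γ and 344 for CX3CL1+IFN-γ against CX3CL1. No filter gave 28 for CX3CL1+IFN-γ against IFN-γ, and quantile normalization 1 for the interaction. Of the 3 genes most like each member, a pseudocount of 0.1 kept 2 for IFI202B, IFI203 and IFI204 and 1 for IFI205 and AIM2, and quantile normalization kept 0 for AIM2. Depth limits the low genes, and without counts no detection limit can be given for IFI205, IFI208 or IFI213 in untreated cells.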
